A study of Mus musculus with 6 samples.

Results

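A set of 10 genes whose RNA is typical of fat cells was followed in whole colon tissue of stressed and resting mice: Adipoq, Retn, Lep, Cfd, Plin1, Cidec, Fabp4, Lpl, Lipe and Pparg. They were taken by symbol from the deposited read count table, and all 10 of 10 were found among its 43432 gene identifiers. The stressed group held 3 wild-type mice (mice 10, 11 and 13), dissected directly after the last of 3 episodes of 30-min restraint. Restraint, a physical confinement used as a stressor, was given on 3 days. The resting group held 3 wild-type mice (mice 15, 17 and 19). The sources used here give no strain, age or feeding state. The treatment protocol reads the same for all 6 mice, restraint included, and only the treatment label separates the groups. Each mouse gave 1 poly(A) RNA library of 16575181 to 19819267 counts in the stressed group and 16425525 to 18209033 counts in the resting group.

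White fat cells, or adipocytes, store triglyceride in a large lipid droplet and release fatty acids from it when hormones or sympathetic nerves call for fuel. They also secrete signalling proteins, the adipokines, into the blood. Fat lies around the colon in the mesentery, outside the epithelium that makes up much of a colon sample. Several of the genes are also used elsewhere in the gut: Pparg in colon epithelium, Fabp4 in capillary endothelium and macrophages, Lpl in macrophages and muscle, and Cidec in enterocytes and liver.

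In the mm10 genome Adipoq (ENSMUSG00000022878) lies on chromosome 16 from 23146536 to 23158028, Retn (ENSMUSG00000012705) on chromosome 8 from 3655770 to 3660110, Lep (ENSMUSG00000059201) on chromosome 6 from 29060220 to 29073877 and Cfd (ENSMUSG00000061780) on chromosome 10 from 79890853 to 79892655. Plin1 (ENSMUSG00000030546) lies on chromosome 7 from 79720218 to 79732903, Cidec (ENSMUSG00000030278) on chromosome 6 from 113424634 to 113435760 and Fabp4 (ENSMUSG00000062515) on chromosome 3 from 10204088 to 10208576. Lpl (ENSMUSG00000015568) lies on chromosome 8 from 68880491 to 68907448, Lipe (ENSMUSG00000003123) on chromosome 7 from 25379527 to 25398710 and Pparg (ENSMUSG00000000440) on chromosome 6 from 115360951 to 115490399. All 10 are annotated as protein-coding genes, on 6 chromosomes. Lipe shares 918 exon bases with an antisense gene, 4732471J01Rik, whose counts were 0 in each stressed mouse, against 1, 2 and 1 in resting mice. The sources used here do not say whether counting used strand, so reads in that stretch could not be told apart.

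The RefSeq table of promoters (GRCm38.p6, 250 bases before to 50 after a start) held 12 windows for 8 of the 10 genes; Fabp4 and Lpl had no entry. Adipocyte genes are classic targets of PPARgamma, which binds with RXR to a direct repeat of AGGTCA spaced by 1 base, and of C/EBP factors. The windows were searched on both strands for AGGTCANAGGTCA, for its AGGTCA unit alone, and for the C/EBP-type motif TTGCNNAA; the first motif contains the second, and the third is separate from both. None of the 12 windows held the full repeat, which 0.0396% of all 32851 windows hold. The AGGTCA unit was in windows of 1 of the 8 genes, Pparg, and is in windows of 18.1% of all genes (16.3% of all windows). TTGCNNAA was in windows of 4 of the 8 genes, Plin1, Cidec, Lep and Pparg, and is in windows of 12.2% of all genes (10.8% of all windows). A match is a string of letters and not a site shown to be used, and these genes also have elements outside the windows.

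The windows of 4 genes are printed: those of Plin1 and Retn, the members with the largest difference between the groups, that of Adipoq, the most adipocyte-restricted adipokine, and that of Lep, whose match is a full palindrome. Capitals mark matches to TTGCNNAA. Plin1 held matches that begin 187 and 58 bases before the start, Lep held TTGCGCAA beginning 55 bases before it, and Adipoq and Retn held none. The windows are chr7:79732727-79733026 on the minus strand for Plin1, chr8:3655520-3655819 on the plus strand for Retn, chr16:23146286-23146585 on the plus strand for Adipoq and chr6:29059971-29060270 on the plus strand for Lep.
Plin1: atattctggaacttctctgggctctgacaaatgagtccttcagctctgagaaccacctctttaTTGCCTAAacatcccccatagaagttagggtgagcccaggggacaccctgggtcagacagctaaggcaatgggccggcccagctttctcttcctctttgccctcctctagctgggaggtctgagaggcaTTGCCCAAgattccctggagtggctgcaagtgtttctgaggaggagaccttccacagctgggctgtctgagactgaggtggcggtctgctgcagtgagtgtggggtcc
Retn: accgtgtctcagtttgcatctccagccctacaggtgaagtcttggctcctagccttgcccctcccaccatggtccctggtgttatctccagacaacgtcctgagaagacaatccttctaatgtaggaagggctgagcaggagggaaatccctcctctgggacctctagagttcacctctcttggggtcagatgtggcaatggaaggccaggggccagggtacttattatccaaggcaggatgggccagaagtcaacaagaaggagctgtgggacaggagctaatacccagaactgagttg
Adipoq: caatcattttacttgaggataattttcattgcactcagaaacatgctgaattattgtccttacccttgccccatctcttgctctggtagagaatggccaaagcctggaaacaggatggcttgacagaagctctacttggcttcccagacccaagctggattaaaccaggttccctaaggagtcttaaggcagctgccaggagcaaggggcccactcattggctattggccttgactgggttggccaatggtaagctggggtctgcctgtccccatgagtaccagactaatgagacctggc
Lep: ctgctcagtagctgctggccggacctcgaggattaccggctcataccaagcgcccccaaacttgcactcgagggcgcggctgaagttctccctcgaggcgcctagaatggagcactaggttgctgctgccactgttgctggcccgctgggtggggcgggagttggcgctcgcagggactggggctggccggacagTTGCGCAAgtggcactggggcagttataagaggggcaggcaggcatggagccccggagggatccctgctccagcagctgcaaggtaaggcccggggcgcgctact

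All 10 adipocyte genes had a higher mean in stressed than in resting mice, and none passed the test. Their log2 fold changes, stressed over resting, were between 0.12 and 0.95 with a median of 0.31, beside a median of -0.0033 over all genes tested. A log2 fold change above 0 was found for 10 of 10 members, where 49.0% of the 16119 tested genes had one. The test was edgeR's quasi-likelihood F test over all tested genes with Benjamini-Hochberg adjustment and a threshold of 0.05. It called 0 of the 10, with adjusted p-values of 0.26 to 0.95, and it called 0.0310% of all tested genes, or 0.0248% as higher in stressed mice. A log2 fold change of 0.5 or more was found for 2 of the 10 (Plin1 and Retn), beside 2.80% of all tested genes. At an unadjusted p under 0.05, 5 of 10 members were higher in stressed mice (Plin1, Retn, Lpl, Pparg and Lipe), beside 3.52% of all tested genes. That number was 8 without stressed mouse 13 or without resting mouse 17. It was 4 without stressed mouse 10, stressed mouse 11 or resting mouse 15, and 5 without resting mouse 19. The share of all genes in these fits is not reported here. The 3 stressed mice lay above the 3 resting mice for 4 of 10 (Plin1, Retn, Lpl and Pparg), beside 6.13% of all tested genes. DESeq2 and limma-voom also called 0 of the 10, and edgeR without the filter on low counts called 3 (Plin1, Retn and Lpl). Without that filter edgeR called 151 genes in all, against 5 with it. The genes had been listed with earlier results of these data known, and several of them move together between mice, so their counts are a description of the list and no test of it. In whole tissue, more adipocytes, more RNA per adipocyte and more RNA from other cells that use some of these genes cannot be told apart.

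**Figure D1:**
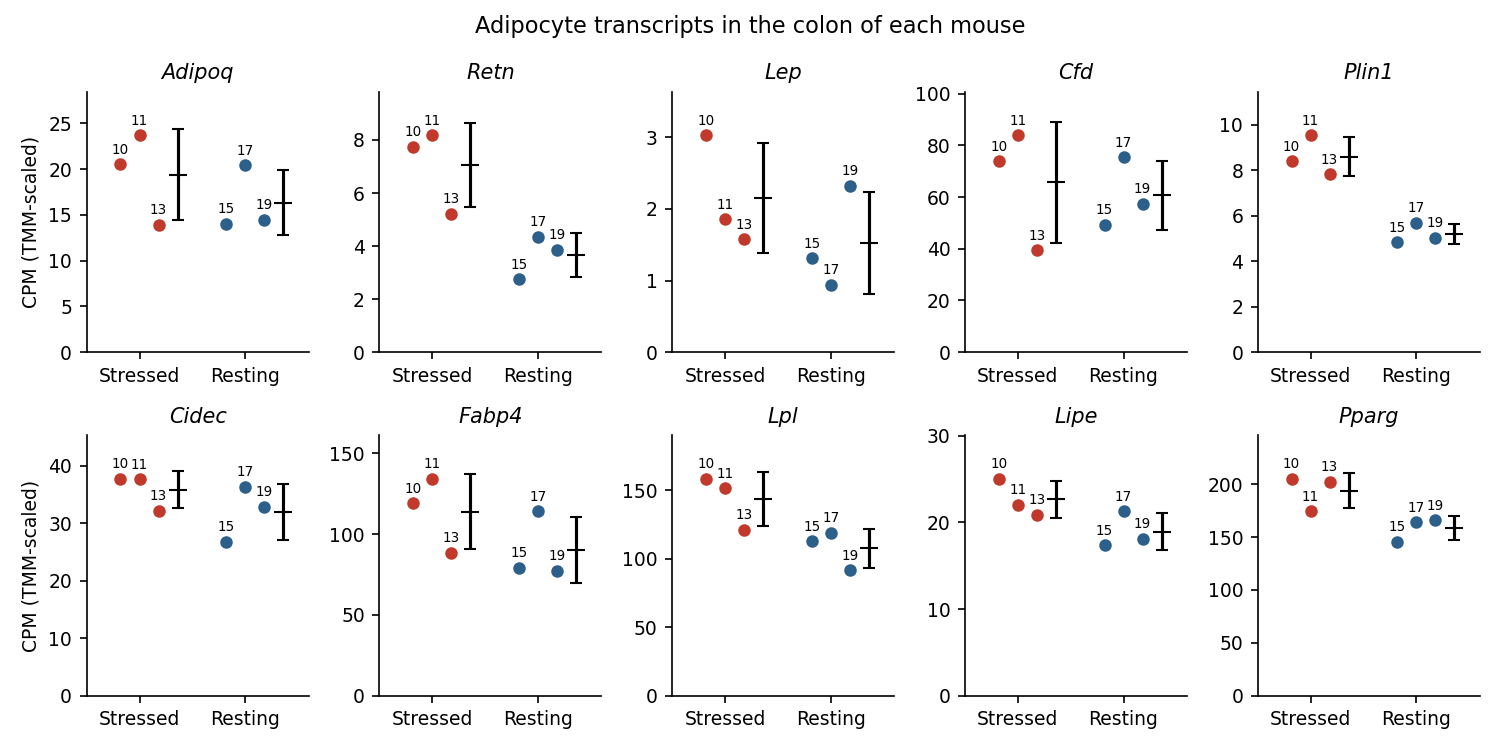
Level of each of the 10 adipocyte genes in CPM (vertical axes from 0) in the 3 stressed mice (red) and 3 resting mice (blue), with the mouse number at each point and the group mean ± SD in black. For Plin1, Retn, Lpl and Pparg the stressed mice lie above the resting mice, while for the other 6 the groups overlap.

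Values per mouse run in the order 10, 11 and 13 for the stressed group and 15, 17 and 19 for the resting group. Of the lipid droplet coat proteins, Plin1 had the larger difference between the groups, although the 95% intervals of Plin1 (0.39 to 1.06) and Cidec overlapped on the log2 scale and the difference between the genes was not tested. Plin1 encodes perilipin 1, which coats the droplet of white adipocytes and guards it from lipases. Its level was 8.41, 9.54 and 7.84 CPM (read counts scaled to the size of each library, with TMM factors) in the stressed mice, against 4.84, 5.70 and 5.03 CPM in the resting mice. All stressed mice lay above all resting mice, and the gap was wider than the spread in either group. The means were 8.59 ± 0.86 and 5.19 ± 0.45 CPM (SD, n = 3 each), and the log2 fold change was 0.73 ± 0.15 (SE; edgeR adjusted p = 0.26). The counts behind them were 129 to 175 per stressed library and 81 to 97 per resting library, so that counting error alone gives an SD of 0.69 and 0.55 CPM, close to the SD seen.

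Cidec encodes the droplet protein that joins small droplets into a large one. It stood at 37.7, 37.7 and 32.2 CPM in the stressed mice, against 26.8, 36.4 and 32.9 CPM in the resting mice. The groups overlapped, with stressed mouse 13 below resting mice 17 and 19. The log2 fold change was 0.16 ± 0.11 (95% interval -0.09 to 0.42, edgeR adjusted p = 0.82), and it was 0.05 without resting mouse 15 and 0.27 without resting mouse 17.

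Of the adipokines, Retn had the largest difference of all members. Retn encodes resistin, which in mice is made by fat cells and lowers the response to insulin. It was at 7.74, 8.17 and 5.23 CPM in the stressed mice, against 2.75, 4.34 and 3.87 CPM in the resting mice. The groups did not overlap, although stressed mouse 13 was much nearer to the resting mice than mice 10 and 11 were. The means were 7.05 ± 1.59 and 3.66 ± 0.82 CPM (SD, n = 3 each), with a log2 fold change of 0.95 ± 0.23 and a 95% interval of 0.44 to 1.45 (edgeR adjusted p = 0.41). Retn counts were 86 to 151 in stressed and 46 to 74 in resting libraries.

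Adipoq encodes adiponectin, the most adipocyte-restricted of these secreted proteins. It was at 20.6, 23.7 and 13.9 CPM in the stressed mice, against 14.0, 20.4 and 14.5 CPM in the resting mice. Stressed mouse 13 had the lowest value of the 6 mice, and resting mouse 17 stood beside stressed mouse 10. The means of 19.4 ± 4.998 and 16.3 ± 3.57 CPM thus differed by less than the SD (log2 fold change 0.25 ± 0.20, 95% interval -0.18 to 0.69, edgeR adjusted p = 0.84). Without stressed mouse 11 the log2 fold change was 0.08, and without resting mouse 17 it was 0.45.

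Cfd encodes adipsin, or complement factor D, the protease that starts the alternative complement pathway. Its values were 73.9, 83.9 and 39.4 CPM in the stressed mice, against 49.3, 75.5 and 57.4 CPM in the resting mice. Stressed mouse 13 was lowest of all and stressed mouse 11 highest, so the groups overlapped over nearly the whole range. Cfd had the smallest log2 fold change of the 10 members, 0.12 ± 0.24 (edgeR adjusted p = 0.95), and its direction depended on single mice. Without stressed mouse 11 it was -0.10 and without resting mouse 15 it was -0.01.

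Lep encodes leptin, the hormone that reports fat stores to the brain. It had few reads, with 59, 34 and 26 counts in the stressed mice, against 22, 16 and 42 counts in the resting mice. Its level of 2.15 ± 0.77 CPM among stressed and 1.53 ± 0.72 CPM among resting mice (SD, n = 3 each) gave a log2 fold change of 0.50 ± 0.37 (95% interval -0.33 to 1.32, edgeR adjusted p = 0.83). The groups overlapped, and resting mouse 19 was above stressed mice 11 and 13. Counting error alone gives an SD of 0.34 CPM among stressed and 0.29 CPM among resting mice, less than the SD seen. The interval holds both a fall and a 2-fold rise. Without stressed mouse 10 the log2 fold change was 0.17, and without resting mouse 19 it was 0.94.

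Fabp4, the lipid carrier of adipocytes also known as aP2, was at 119, 134 and 88.5 CPM in the stressed mice, against 79.2, 114 and 77.5 CPM in the resting mice. The pattern was that of Adipoq, with resting mouse 17 above stressed mouse 13. The log2 fold change was 0.34 ± 0.17 (95% interval -0.04 to 0.71, edgeR adjusted p = 0.74), and it was 0.20 without stressed mouse 11 and 0.54 without resting mouse 17.

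Lpl encodes lipoprotein lipase, which frees fatty acids from circulating lipoproteins. Its level was 158, 151 and 121 CPM in the stressed mice, against 113, 119 and 91.5 CPM in the resting mice. The groups touched without overlapping, since stressed mouse 13 lay just above resting mouse 17. The means were 143 ± 19.8 and 108 ± 14.3 CPM (log2 fold change 0.42 ± 0.12, edgeR adjusted p = 0.49). Lipe, the hormone-sensitive lipase that works on stored triglyceride and diglyceride after adrenergic signals, had 25.0, 22.1 and 20.9 CPM in the stressed mice, against 17.4, 21.3 and 18.1 CPM in the resting mice. Here resting mouse 17 was above stressed mouse 13, and the log2 fold change was 0.26 ± 0.11 (edgeR adjusted p = 0.69).

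Pparg encodes the nuclear receptor PPARgamma, the master regulator of fat cell formation. It was at 205, 175 and 202 CPM in the stressed mice, against 146, 164 and 166 CPM in the resting mice. The groups did not overlap, and Pparg was the member whose lowest stressed value came from mouse 11 and not from mouse 13. The means were 194 ± 16.8 and 159 ± 11.1 CPM (log2 fold change 0.29 ± 0.08, edgeR adjusted p = 0.49). A 2-fold rise lay outside the 95% interval of 7 of the 10 members, the exceptions being Plin1, Retn and Lep.

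**Figure D2:**
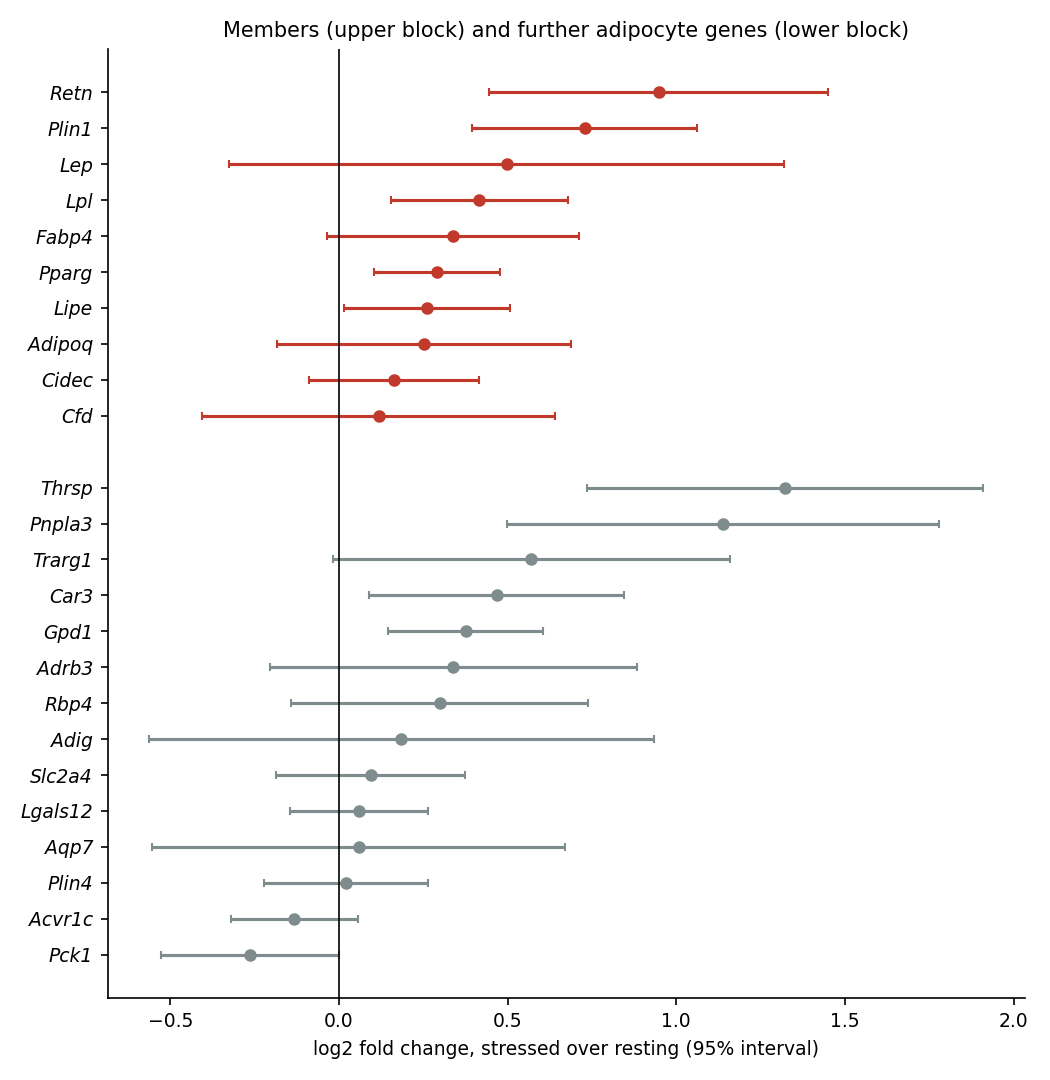
Log2 fold change, stressed over resting, with its 95% interval from the edgeR fit (horizontal axis) for the 10 members (red, upper block) and 14 further adipocyte genes (grey, lower block). All 10 members lie above 0, from Cfd at 0.12 to Retn at 0.95, with 5 intervals that exclude 0 before adjustment, and the further genes run from Pck1 at -0.26 to Thrsp at 1.32.

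The members fell into patterns over the 6 mice that the group averages hide. Stressed mouse 13 was the lowest stressed mouse for 9 of 10 members, resting mouse 17 the highest resting mouse for 8 of 10 and resting mouse 15 the lowest resting mouse for 7 of 10. The share of all genes with these orders is not reported here. Mouse 13 was also the lowest stressed mouse for the summed smooth muscle markers given below, but the highest for the summed endothelial markers. Summed over the 10 members, the level was 659, 647 and 533 CPM in the stressed mice, against 454, 561 and 469 CPM in the resting mice. The sums overlapped between the groups, since resting mouse 17 stood above stressed mouse 13. Over Plin1, Adipoq, Retn, Cidec, Cfd and Lep alone, the sum was 151, 165 and 100 CPM in the stressed mice, against 99.0, 143 and 116 CPM in the resting mice.

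The members differed in how alike their profiles were from mouse to mouse. Likeness was measured as the root mean square difference between log2 CPM profiles, each centred on its mean over the 6 mice, so that a small value means a like profile. It was 0.0758 for Adipoq and Fabp4, the closest of all pairs. Lipe was near Cidec (0.0984), Pparg (0.116) and Lpl (0.148), and Adipoq near Cfd (0.149), while Cfd and Fabp4 differed by 0.224. The pairs of Lep with Cfd and with Fabp4 were among the least alike, at 0.594 and 0.573. Over the 6 mice the profiles spanned 0.49 log2 units for Pparg and Cidec, 0.76 for Adipoq, 1.09 for Cfd, 1.53 for Retn and 1.58 for Lep, the member with the fewest counts.

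**Figure D3:**
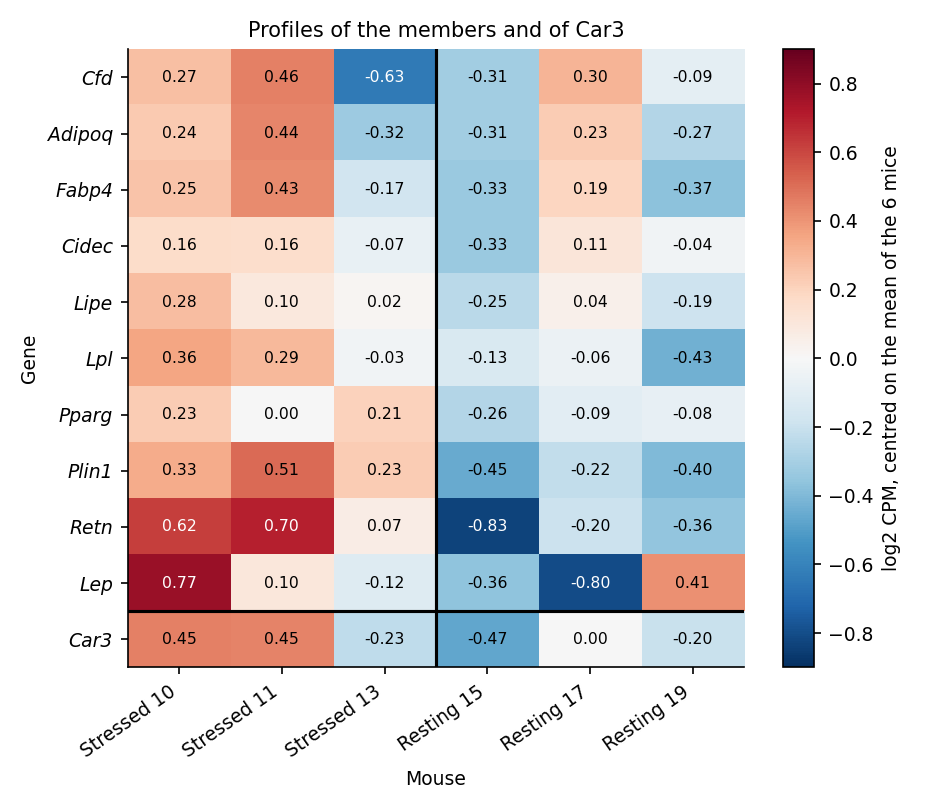
Log2 CPM of the 10 members and of Car3 (rows), centred on the mean of the 6 mice, in each mouse (columns, stressed left of the line and resting right of it). Cfd, Adipoq and Fabp4 are high in stressed mice 10 and 11 and resting mouse 17, whereas Plin1 and Retn are above their mean in the 3 stressed mice and below it in the 3 resting mice.

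Plin1 and Retn had a higher share relative to Adipoq in stressed mice. Per 100 Adipoq counts of the same library there were 40.9, 40.2 and 56.3 Plin1 counts in the stressed mice, against 34.5, 27.9 and 34.7 in the resting mice. Retn had 37.7, 34.5 and 37.6 counts per 100 of Adipoq in the stressed mice, against 19.6, 21.3 and 26.7 in the resting mice. Neither ratio overlapped between the groups. The Fabp4 ratio did not overlap either, at 566 to 636 per 100 Adipoq counts in stressed and 535 to 564 in resting mice. Outside the members, the ratio of Thrsp to Adipoq was also higher in stressed mice without overlap, while those of Car3 and Gpd1 overlapped. The share of all genes whose ratio to Adipoq separates the groups is not reported here. The ratios of Cidec, Cfd, Lep, Lpl, Lipe and Pparg to Adipoq overlapped between the groups; for Cfd they were 283 to 359 in stressed and 351 to 396 in resting mice. Adipoq was made the base after its values were seen, and the ratios carry no test.

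Per length of the principal transcript, Fabp4 and Pparg were the most abundant members and Lep the least. In CPM per kilobase Fabp4 averaged 127 ± 26.0 in stressed and 101 ± 23.1 in resting mice, and Pparg 110 ± 9.5 and 89.7 ± 6.29 (SD, n = 3 each). Their order was not settled, since Fabp4 was above Pparg in 4 of 6 mice. Cfd, Lpl, Cidec and Adipoq followed, at 71.3, 34.9, 20.8 and 15.01 CPM per kilobase in stressed mice and 65.8, 26.1, 18.6 and 12.6 in resting mice. In each of the 6 mice this order held, although the ranges of Pparg and Cfd and those of Cidec and Adipoq overlapped between mice. Lipe (6.27 and 5.24 CPM per kilobase in stressed and resting mice) and Retn (6.19 and 3.21) changed places in 1 of 6 mice. Plin1 was at 3.05 and 1.84 and Lep at 0.66 and 0.47 CPM per kilobase in stressed and resting mice. Cidec thus stood above Plin1, its partner on the adipocyte droplet, with a mean of 19.7 against 2.45 CPM per kilobase over the 6 mice. The order depends on the transcript: with all annotated exons as the length, Fabp4 averaged 22.7 CPM per kilobase over the 6 mice and Cfd, at 68.6, came first.

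Outside the members, Car3 had the profile most like theirs. The comparison took the mean centred profile of Plin1, Adipoq, Retn, Cidec, Cfd and Fabp4 and 14921 other tested genes with a mean of at least 1 CPM. Car3, a carbonic anhydrase abundant in fat and muscle, differed from it by 0.0764 log2 units (root mean square over 6 libraries), where the median gene differed by 0.337. Its level was 146, 145 and 91.0 CPM in the stressed mice, against 77.2, 106 and 92.9 CPM in the resting mice. Stressed mouse 13 lay between resting mice 15 and 19, and the log2 fold change was 0.47 ± 0.17 (edgeR adjusted p = 0.63). The next genes by this measure were Map6 (0.0881), Srrm3 (0.10), Spock2 (0.104), Epha5 (0.106), Gbgt1 (0.108), Dennd2c (0.11), Tbxa2r (0.11), A930033H14Rik (0.115) and Map4k1 (0.116). None of these passed the test (edgeR adjusted p of 0.57 to 0.91), and many genes can match a profile of 6 values.

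Further adipocyte genes were higher in stressed mice for 12 of 14, and their median log2 fold change was 0.24, beside a median of -0.0033 over all tested genes. Without stressed mouse 11 the median was 0.14 with 9 of 14 higher, and without resting mouse 19 it was 0.16 with 11 of 14 higher. None passed, and the stressed mice lay above the resting mice for 3 of 14, beside 6.13% of all tested genes, and below them for 1 of 14, beside 6.58%. Thrsp, a protein that goes with fat synthesis in adipocytes and liver, was at 8.41, 14.2 and 9.78 CPM in the stressed mice, against 2.81, 5.81 and 4.31 CPM in the resting mice (log2 fold change 1.32 ± 0.26, edgeR adjusted p = 0.21). Pnpla3, a lipid droplet protein that responds to feeding, was at 2.26, 3.38 and 4.38 CPM in the stressed mice, against 1.67, 1.23 and 1.603 CPM in the resting mice (1.14 ± 0.29, adjusted p = 0.46). The groups did not overlap for either gene. Thrsp and Pnpla3 differed from the profile of the members, by 0.532 and 0.589 log2 units (root mean square).

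General lipid droplet and lipolysis genes had a median log2 fold change of -0.01. Of 10 tested, 4 were higher and 6 lower, and 7 were higher without stressed mouse 10 or without resting mouse 17. G0s2, which inhibits the main triglyceride lipase, had 5.69, 6.76 and 5.10 CPM in the stressed mice, against 2.81, 5.402 and 3.32 CPM in the resting mice (log2 fold change 0.61, edgeR adjusted p = 0.66). Cideb, the relative of Cidec in liver and intestine, was at -0.19 (adjusted p = 0.84). Triglyceride synthesis genes had 2 of 8 higher and a median of -0.05, with Dgat1 at -0.17 and Gpat4 at -0.13. Neither list had a member past the threshold.

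Of the genes that work with lipoprotein lipase or take up fatty acids, 9 of 11 were higher with a median log2 fold change of 0.10 (0.22 without resting mouse 17), and none passed. Cd36, the fatty acid transporter, was at 24.7 to 27.7 CPM among stressed and 19.7 to 25.0 CPM among resting mice (log2 fold change 0.28, edgeR adjusted p = 0.65). Lipg, the endothelial lipase, went the other way, with 16.9, 15.1 and 20.05 CPM in the stressed mice, against 22.7, 25.4 and 22.7 CPM in the resting mice (log2 fold change -0.45, adjusted p = 0.46). All stressed mice lay below all resting mice for Lipg, beside 6.58% of all tested genes.

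Adipogenic transcription factors had 4 of 9 higher and a median of -0.02, with Cebpd at 0.41 (edgeR adjusted p = 0.57) and Cebpb at 0.18. The median moved to -0.09 without stressed mouse 10 and to 0.09 without stressed mouse 11. Adipokine receptors had 1 of 5 higher (median -0.02), and 0 to 2 with a mouse left out, with the leptin receptor gene Lepr at -0.35 (adjusted p = 0.76) and the adiponectin receptor gene Adipor2 at -0.08. In the alternative complement pathway, of which Cfd is the starting protease, 2 of 5 genes were higher (median -0.06). C3, the central component, was at 61.0, 66.2 and 96.8 CPM in the stressed mice, against 25.9, 52.0 and 37.3 CPM in the resting mice (log2 fold change 0.96 ± 0.23, adjusted p = 0.41). C3 did not follow Cfd across mice, since stressed mouse 13 was highest for C3 and lowest for Cfd.

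Markers of other tissues around the colon wall also differed with the groups. Mesothelium, the lining of the outer surface of gut and mesentery, had 6 of 6 tested markers higher in stressed mice, of 7 found and 8 listed, with a median log2 fold change of 1.36. The stressed mice lay above the resting mice for 5 of the 6, beside 6.13% of all tested genes. Their summed level was 25.1, 20.2 and 31.2 CPM in the stressed mice, against 8.49, 13.2 and 10.7 CPM in the resting mice, and none of the 7 was at 0. No mesothelial gene passed the test: Gpm6a was at 1.29 ± 0.24 on the log2 scale (edgeR adjusted p = 0.20) and Upk3b, a uroplakin gene, 1.43 ± 0.28 (adjusted p = 0.21). Stressed mouse 13, the lowest stressed mouse for most adipocyte genes, was the highest for mesothelium. The part of mesothelial tissue in the adipocyte result was not tested.

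Red blood cell genes were higher in 4 of 4 cases (median 1.48), beside 49.0% of all tested genes. Their summed level was 29.8 to 36.7 CPM among stressed and 7.80 to 23.0 CPM among resting mice. The groups did not overlap in the sum, and resting mouse 17 had the highest resting sum. All stressed mice lay above all resting mice for 4 of the 4 genes, beside 6.13% of all tested genes. None of the 4 passed the test. Hbb-bt was at 1.57 on the log2 scale (edgeR adjusted p = 0.18) and Hba-a2 1.82 (adjusted p = 0.39). Their part in the adipocyte result was not tested.

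The summed markers of endothelium, macrophages, adipose stroma and smooth muscle overlapped between the groups. Endothelial markers had 1 of 6 higher (median -0.08), with a summed level of 45.4 to 63.4 CPM among stressed and 48.4 to 71.2 CPM among resting mice; Rbp7 had 0.82 (edgeR adjusted p = 0.66) and Cdh5 -0.27. Macrophage markers had 3 of 8 higher (median -0.06) and sums of 107 to 195 CPM among stressed and 143 to 178 CPM among resting mice, with Trem2 at 0.58 and Cd68 at -0.20. Adipose stromal and preadipocyte markers had 3 of 5 higher (median 0.08), with Pdgfra at -0.31 and Ly6a at 0.25. These counts turned with single mice for endothelium (4 of 6 higher without stressed mouse 10, 2 of 6 without stressed mouse 11 and 6 of 6 without resting mouse 17) and macrophages (7 of 8 higher without stressed mouse 10 and 1 of 8 without stressed mouse 13). Smooth muscle markers had 5 of 6 higher (median 0.12) and sums of 3101 to 3573 CPM among stressed and 2699 to 3489 CPM among resting mice, with Cnn1 at 0.16 and Actg2 at 0.15; without resting mouse 19, 3 of 6 were higher.

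Brown fat markers ranged from near 0 to above 10 CPM. Ucp1, the defining uncoupling protein, had no count in the stressed mice and 0.0598, 0 and 0 CPM in the resting mice, and Elovl3 had at most 0.0587 CPM in a library. Cidea and Cox8b were below 1 CPM in every library. Cox7a1, a muscle and fat form of a respiratory chain subunit, was at 14.2, 12.3 and 15.1 CPM in the stressed mice, against 16.3, 11.04 and 10.01 CPM in the resting mice (log2 fold change 0.16), and Dio2 was at 1.16 to 1.25 CPM among stressed and 0.478 to 1.27 CPM among resting mice (0.34). Both genes overlapped between the groups. Skeletal muscle markers had 3 of 4 higher (median 0.26), with Acta1 at 0.88, Ryr1 at 0.42, Ckm at -0.02 and Myh4 at 0 in all libraries. They summed to 21.2 to 25.6 CPM among stressed and 16.0 to 20.3 CPM among resting mice, without overlap. For 0 of the 4 tested markers did all stressed mice lie above all resting mice. Acta1 had 6.70 to 14.4 CPM among stressed and 3.41 to 8.625 CPM among resting mice. Of the pancreatic acinar list only Sycn (-0.42) and Cela1 (-0.19) were tested, and both were lower. For both, all stressed mice lay below all resting mice, beside 6.58% of all tested genes. Cpa1 and Amy2a5 were at 0 in all libraries, and Pnlip and Ctrb1 had at most 0.0608 and 0.176 CPM in a library. The cells that gave the Sycn and Cela1 RNA were not tested. B cell markers had 3 of 3 lower, with Cd79a at -0.77.

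Colon epithelial markers were high in every library, matching the tissue label. They summed to 24290 to 26210 CPM among stressed and 20440 to 22790 CPM among resting mice, with Car1, a carbonic anhydrase of colonocytes, at 11560 to 13020 CPM among stressed and 7441 to 10330 CPM among resting mice (log2 fold change 0.45, edgeR adjusted p = 0.46). Of the 9, 6 were higher with a median of 0.03, and the water channel gene Aqp8 had -1.06 (adjusted p = 0.46). Set beside that sum, the 10 adipocyte genes held 533 to 659 CPM among stressed and 454 to 561 CPM among resting mice. Much of this came from Pparg, Lpl and Fabp4, which other gut cells also use. Their mean shares were 32.0%, 23.4% and 18.5% in stressed mice, and 32.2%, 21.8% and 18.1% in resting mice. Plin1, Adipoq, Retn, Cidec, Cfd and Lep alone held 100 to 165 CPM among stressed and 99.0 to 143 CPM among resting mice. Of this, Cidec, which enterocytes also use, held 32.2 to 37.7 CPM among stressed and 26.8 to 36.4 CPM among resting mice.

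**Figure D4:**
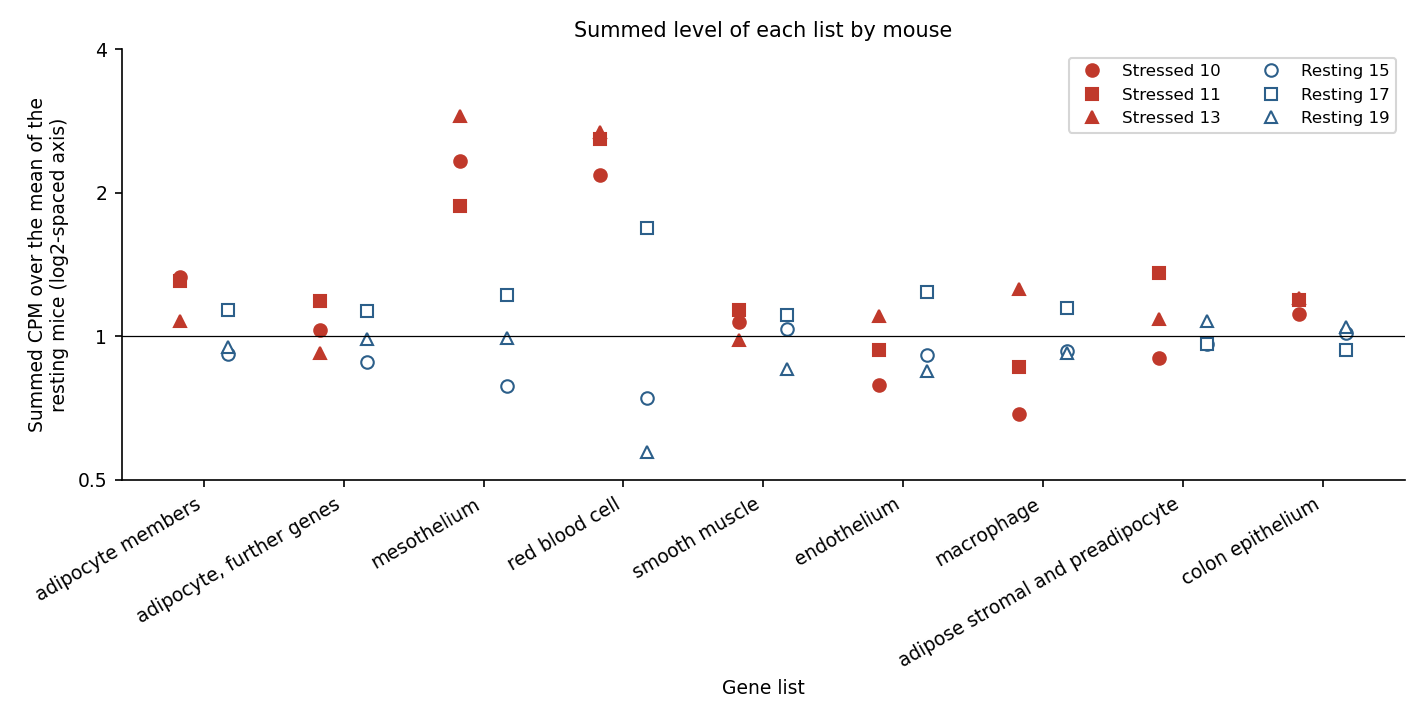
Summed CPM of the gene lists on the horizontal axis in each mouse, divided by the mean of the 3 resting mice (vertical axis spaced as log2). Stressed mice are filled red and resting mice open blue. The stressed mice are farthest above the resting mice for mesothelium (1.88 to 2.89) and red blood cell genes (2.18 to 2.69). They also lie above without overlap for colon epithelium, a list with a median log2 fold change of 0.03. Of its 9 genes, 1 (Car1) lay above without overlap and 1 (Aqp8) below, beside 6.13% and 6.58% of all tested genes. The 10 adipocyte members (1.08 to 1.33 in stressed and 0.92 to 1.13 in resting mice) overlap. Of the lists not drawn, stressed mice lay above without overlap for the sums of alternative complement and skeletal muscle genes. Single genes did so for 1 of 5 (C3) and 0 of 4, in that order, beside 6.13% of all tested genes. Stressed mice lay below for adipokine receptors, where 0 of 5 single genes did so. They also lay below for the pancreatic acinar list, whose counts came nearly all from Sycn and Cela1.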

How the data were processed

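RNA of whole colon was sequenced in 6 libraries, 1 per mouse. The authors deposited raw read counts per Ensembl gene; fastp, HISAT2 and the mm10 build are listed, per the submitters' processing notes. The sources used here do not give the read counter, annotation or strand setting. Per the labels' protocols, libraries were stranded and poly(A)-selected from RNA that passed an integrity check. No 2 libraries of a group looked like copies (chi-square per gene of 7.78 to 18.2).

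From these counts, edgeR 4.0.16 in R 4.3.3 was run with filterByExpr (minimum count 10, minimum total 15; 16119 genes kept, all 10 members among them) and TMM factors of 0.985 to 1.02. Groups were the only term. Standard errors and 95% intervals come from that fit. Log2 CPM used a prior count of 2. DESeq2 1.42.0 and limma 3.58.1 served as alternatives, beside other scalings and filters and leaving out each mouse.

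Symbols matched 42462 identifiers, and 149 of 150 list entries were found (Muc16 was not used here). Coordinates and transcript lengths are from GENCODE M21, for the same build; promoter sequences are from RefSeq. The members and lists were chosen with earlier results of these data known. From each list the text names the genes past the threshold, or else the 2 with the smallest p (2 such genes are not reported here), and from all genes the 10 nearest in profile. The edgeR p-values weigh the difference between the groups against the spread between mice, which edgeR estimates with information shared across genes.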

Additional observations from a re-analysis of the deposited data

How the results depend on the processing

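The 10 members were compared under 13 alternatives: other scalings, other filters, DESeq2, limma-voom and leaving out each mouse. Of the members, 9 kept a log2 fold change above 0 under all 13. Cfd ranged from -0.096 to 0.377 with a mouse left out, turning to -0.096 without stressed mouse 11 and -0.01 without resting mouse 15, so that 0 to 1 members were lower. The median over the members was 0.229 to 0.464 with a mouse left out. The number past the threshold was 0 under 12 alternatives and 3 without the filter on low counts (adjusted p of 0.0281 for Plin1, 0.00994 for Retn and 0.0146 for Lpl). Over all genes the number called was 5, but 151 without the filter, 56 with DESeq2 and 3 with limma-voom, and 1 to 14 with a mouse left out (1 without stressed mouse 10 or resting mouse 15, 14 without stressed mouse 11); the cause was not tested. At an unadjusted p under 0.05 there were 5 members, with 4 to 8 when a mouse was left out; 8 came without stressed mouse 13 or without resting mouse 17. No paired analysis was possible because the groups share no mouse numbers. With DESeq2 the adjusted p was 0.0837 for Plin1, 0.0658 for Retn and 0.0917 for Lpl. Leaving out a mouse gave a median of 1.16 to 1.603 for mesothelium and 1.30 to 1.91 for red blood cell genes. Lep had the fewest counts, 16 to 59 per library, and ranged from 0.165 to 0.942 with a mouse left out.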

Other observations

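Relatives of Retn had levels of their own in these colons and were looked up after the result for Retn was seen. Retnlb, the resistin-like gene of goblet cells, was at 16.1, 104 and 40.4 CPM in the stressed mice, against 99.1, 67.2 and 86.3 CPM in the resting mice. Its order over the mice was not that of Retn, and stressed mouse 10, which had 7.74 CPM of Retn, had the lowest Retnlb. Retnla was at 4.51, 5.29 and 5.29 CPM in the stressed mice, against 3.11, 4.99 and 3.87 CPM in the resting mice, with stressed mouse 10 below resting mouse 17. Retnlg had no count in the stressed mice, against 1, 0 and 1 counts in the resting mice. No test was run on these values.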
